A study of Canis lupus familiaris with 8 samples.

Results

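The solute carrier genes of a canine mammary adenocarcinoma cell line were followed in the line itself, in a doxorubicin-resistant subline and in cells sorted from each as cancer stem cells. A gene was taken as a member where the accession of its array probe mapped to a symbol made of SLC and a digit, with SLC2A1 left out. This gave 46 genes on 61 probes, by a rule that reads names and not values. In all, 1458 genes were named, on 2353 of the 43603 gene probes. Solute carrier genes on probes without a name could not be counted.

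Solute carriers are membrane proteins that move amino acids, sugars, ions, metals, nucleosides and metabolic intermediates across the plasma membrane or the membranes of organelles. Most do not burn ATP themselves, and many instead couple the movement of their substrate to a gradient of sodium, protons or another solute. In tumour cells they are known mainly as suppliers of glutamine, cystine, leucine and glucose, and some carry nucleosides and drugs.

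Total RNA was hybridised to 8 arrays with a single dye (Cy3), 2 arrays in each of 4 groups. Stylo parent was the unsorted line CMT-Stylo, labelled as not treated. Star parent was CMT-Star, the subline raised from it over several months of rising doxorubicin until it tolerated 100 nM, labelled as doxorubicin treated. Stylo CSC and Star CSC were cells sorted from each line as positive for CD44 and for aldehyde dehydrogenase activity with little or no CD24. Both lines grew in the same serum medium, and 1 resistant subline stands for resistance throughout. Whether drug was present at harvest is not given in the sources used here. The labels do not place the 2 replicates of a group in separate cultures. Each p-value therefore rests on array-to-array spread that may be technical, with n = 2 arrays per group throughout.

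A level below is the log2 processed signal of a probe relative to the 75th percentile of its array, so 0 is that percentile. A difference is the log2 fold change between group means with its standard error (SE). A difference was called at a Benjamini-Hochberg adjusted p under 0.05, over all tested probes, in limma's moderated test together with at least a 2-fold change. Signals were dimmer on both Stylo parent arrays, with a 75th percentile of 69.5 and 88.6 intensity units against 297 to 538 on the other 6, and the share of spots flagged as well above background was 46.7% and 47.4% there and 55.5% to 60.7% elsewhere. The scanner's flag for a signal well above background was therefore reached at a higher relative level there: the lowest flagged level was -3.31 and -3.13 on the Stylo parent arrays and between -5.66 and -4.77 on the others. All Stylo arrays shared slide 1 and all Star arrays slide 2, scanned separately, so in comparisons between lines the slide cannot be told apart from the line. Of 13 listed epithelial markers 5 had a named probe, and their summed level, on a linear scale where 1 is the 75th percentile of the array, was 3.44 to 4.22 in Stylo parent, 2.27 to 2.45 in Stylo CSC, 0.934 to 1.09 in Star parent and 1.19 to 1.35 in Star CSC. On both arrays of a group, KRT14 was detected in every group, CLDN3 only in the Stylo groups and CDH1 in all groups but Stylo parent. MUC1 was so detected only in the Star groups and KRT19 only in Star CSC. The number so detected was thus 2 in Stylo parent, 3 in Stylo CSC, 3 in Star parent and 4 in Star CSC, although the summed level was lower in Star. All 7 named mesenchymal markers were well above background on all arrays, with a summed level of 2228 to 2552 in Stylo parent and 1717 to 1826 in Stylo CSC against 574 to 628 in Star parent and 437 to 477 in Star CSC. Both sums were thus lower in Star, as were several members below, and the part of cell makeup in those differences was not tested.

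The members fell into a broad detected set and a smaller set detected on some arrays. On all 8 arrays, 22 of the 46 genes were well above background by at least 1 probe. On none were 10: the peptide carrier SLC15A1, the glial glutamate carrier SLC1A2, the kidney and liver cation carrier SLC22A2, the red cell anion exchanger SLC4A1, the sodium-glucose carriers SLC5A1 and SLC5A2, the noradrenaline, dopamine and serotonin carriers SLC6A2, SLC6A3 and SLC6A4, and the kidney cystine carrier SLC7A9. The other 14 were detected on some arrays. Stylo parent had 22 and 25 genes detected, Stylo CSC 28 and 29, Star parent 33 and 34, and Star CSC 31 and 32.

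**Figure D1:**
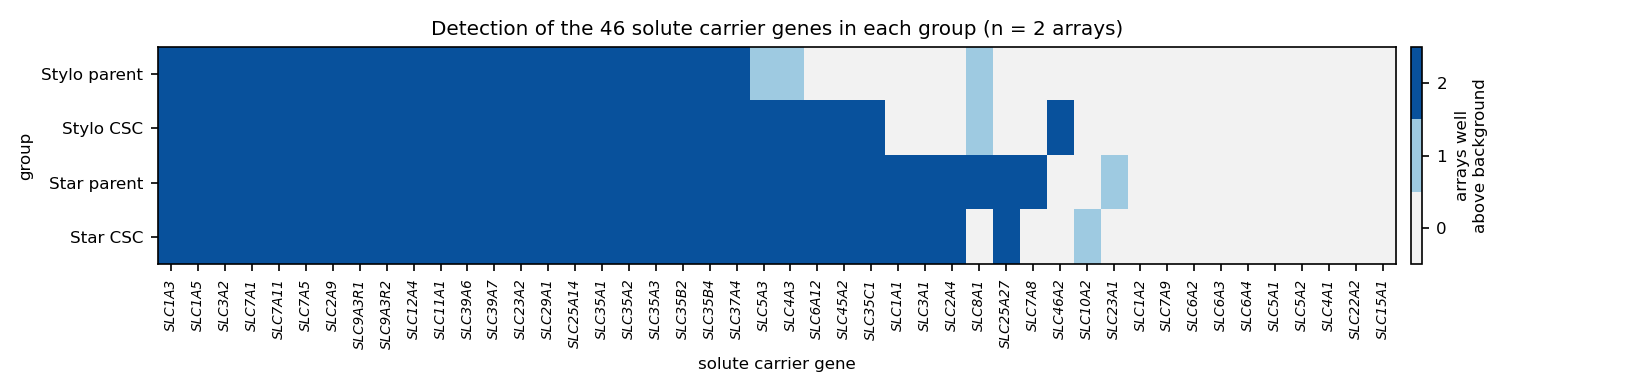
Each column is 1 of the 46 solute carrier genes and each row a group, and the shade gives the number of its 2 arrays on which at least 1 probe of the gene was well above background. A block of 22 genes is filled in every group, 4 genes are filled only in the Star rows, and SLC46A2 is filled only in the Stylo CSC row.

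SLC1A1, SLC2A4, SLC3A1 and SLC25A27 were well above background on all 4 Star arrays and on no Stylo array. SLC6A12, SLC35C1 and SLC45A2 were detected on both arrays of every group except Stylo parent. SLC46A2 was detected only on the Stylo CSC arrays, and SLC7A8 only on the Star parent arrays. Detection alone does not order the levels, since the flag was reached at a higher level on the Stylo parent arrays. SLC7A8 stood at -3.62 and -3.53 in Stylo parent, not flagged, above its -4.43 and -4.05 in Star parent. SLC25A27 stood at -3.60 and -4.28 in Stylo parent, not flagged, against -4.28 and -4.70 in Star parent. SLC4A3 and SLC5A3 missed 1 Stylo parent array, SLC8A1 was detected on 1 array of Stylo parent, 1 of Stylo CSC and both of Star parent, and the bile acid carrier SLC10A2 and the vitamin C carrier SLC23A1 on 1 array each.

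For the tests, 45 probes of 34 genes passed a detection filter, which asked for 1 or more groups with both arrays well above background. Where a gene had several such probes, the one with the highest mean over the 8 arrays stands for it. Members that passed only through the group where they are high had to differ, so the counts below describe the 34 genes and support nothing by themselves. Between the unsorted lines, 17 of the 34 were called (50%), with 8 higher in Star parent and 9 lower, where calls made up 56.6% of all 26737 tested probes, 24.6% higher and 31.9% lower. In Stylo CSC against Stylo parent, 19 were called (55.9%), 11 higher and 8 lower, beside 54.0% of all probes, 21.9% higher and 32.1% lower. In Star CSC against Star parent only 5 were called (14.7%), 1 higher and 4 lower, against 9.69% of all probes, 3.21% higher and 6.48% lower. Between the sorted cells, 14 were called (41.2%), 5 higher and 9 lower in Star CSC, against 29.4% of all probes, 12.6% higher and 16.8% lower. The median difference of the members was 0.34, 0.12, -0.19 and -0.22 in that order, beside -0.20, -0.28, -0.10 and -0.10 over all tested probes.

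The split into higher and lower depended on the scaling of the arrays. Scaling to the array medians gave 10 higher and 8 lower members in Star parent against Stylo parent and 14 and 6 in Stylo CSC against Stylo parent. Scaling to the spike-in controls gave 20 and 4, and 26 and 0, in these comparisons, 23 and 1 in Star CSC against Star parent (2 and 1 with array medians, 1 and 0 with normexp), and 8 and 6 between the sorted cells (5 and 8, and 2 and 7). That scaling moved the median of all probes to 0.85, 1.82, 1.56 and 0.51. Normexp background correction moved it to -0.82, -0.77, -0.23 and -0.25, and gave 5 higher and 15 lower members between the unsorted lines and 8 and 12 in Stylo CSC against Stylo parent. Directions that flip under such a scaling are named with many of the genes below, but not for every probe and comparison. Of the calls in Stylo CSC against Stylo parent, 3 (SLC2A4, SLC7A8 and SLC25A27) were on probes not well above background in either group, and 1 between the sorted cells (SLC8A1) was likewise, so no fold is given for these.

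**Figure D2:**
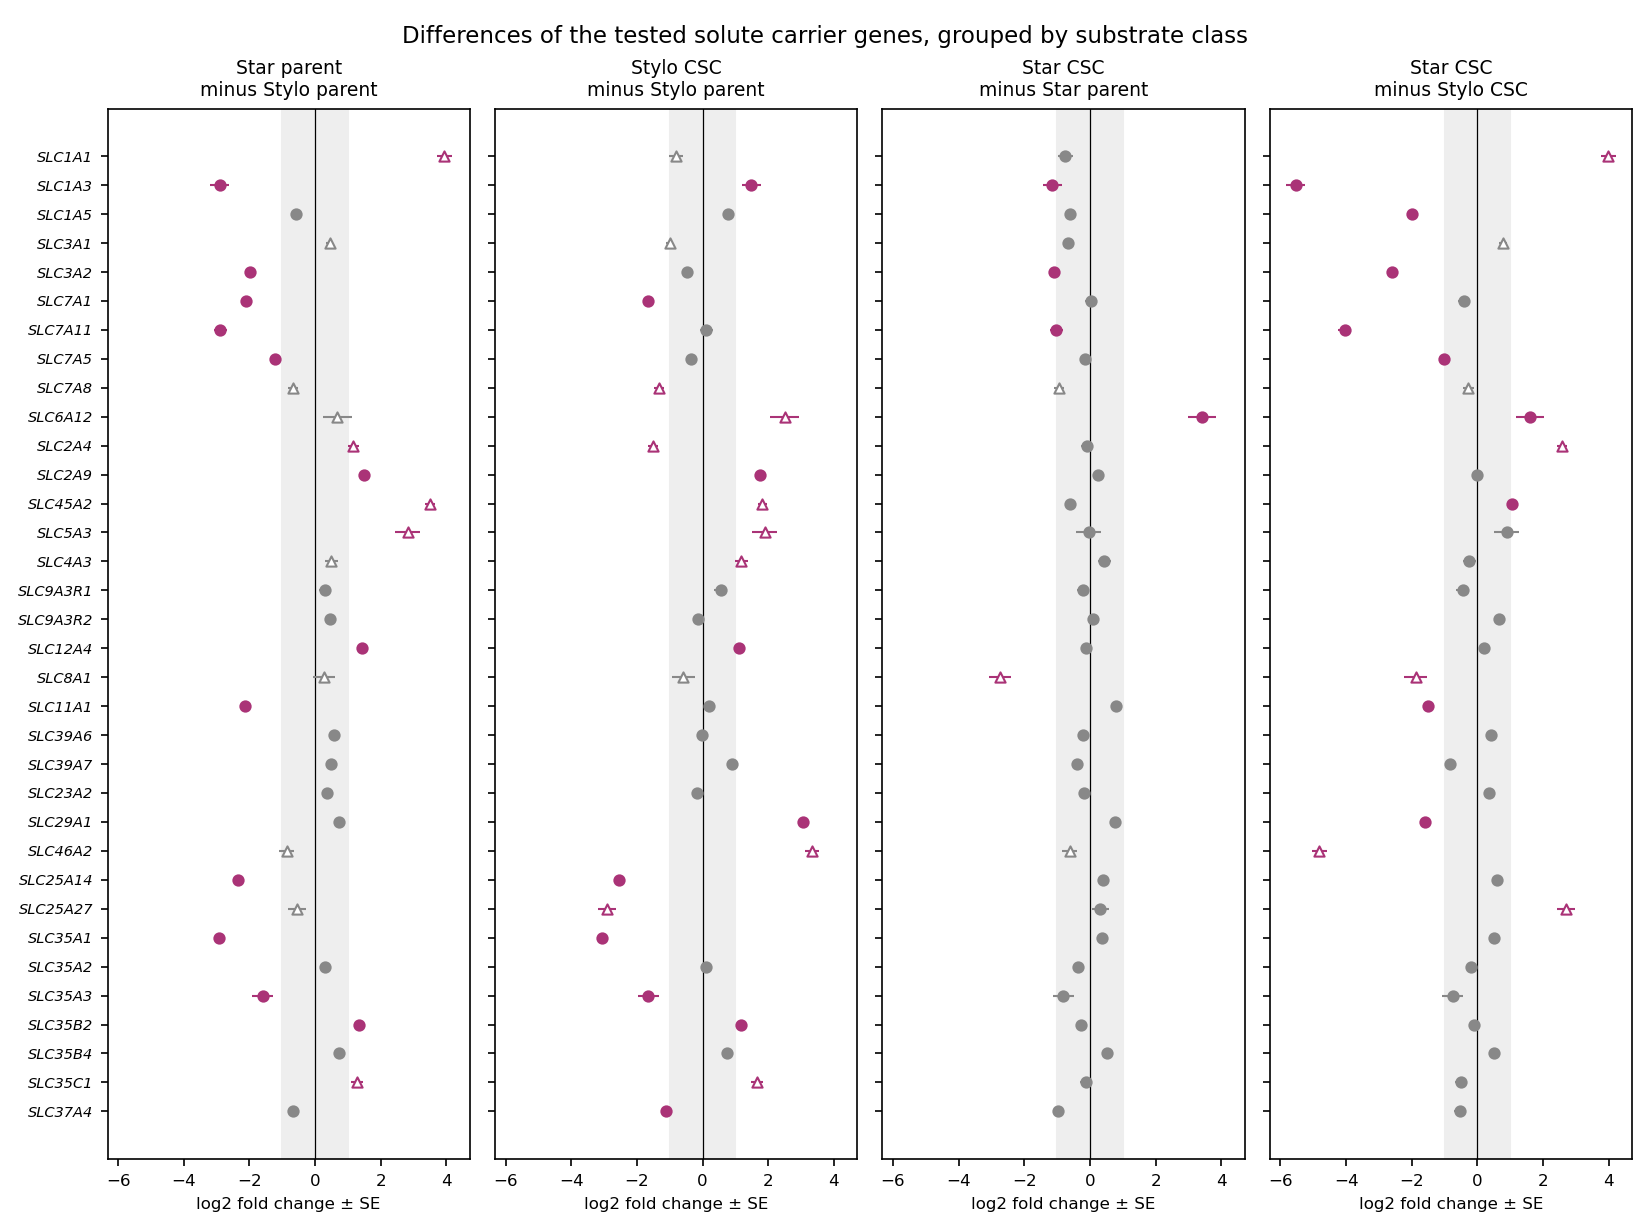
The horizontal axis gives the log2 fold change with its SE for the 34 tested genes, listed by substrate class, in 4 comparisons; purple marks a call, grey none, filled circles genes well above background on all 4 arrays compared, open triangles the others, and the shaded band changes under 2-fold. Calls are frequent in the first 2 panels and few in Star CSC against Star parent, where SLC6A12 stands at 3.42.

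Of 9 tested amino acid carriers, 5 were called lower and 1 higher in Star parent than in Stylo parent, where 31.9% of all probes were called lower and 24.6% higher. Star CSC against Stylo CSC again gave 5 lower and 1 higher, beside 16.8% and 12.6% of all probes. The class medians were -1.21 and -1.02. With spike-in scaling the counts were 2 lower and 2 higher (median -0.17) and 4 lower and 2 higher (-0.41). In Stylo CSC against Stylo parent 1 was higher and 2 were lower (7 higher and 0 lower with spike-in scaling), beside 21.9% and 32.1% of all probes. Of the 2 lower, SLC7A8 was above background in neither group. In Star CSC against Star parent 3 were lower, where 3.21% of all probes were called higher and 6.48% lower. That count was 2 higher and 0 lower with spike-in scaling, and none was called with array medians or normexp. The higher one in both comparisons of the lines was SLC1A1.

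SLC1A1 and SLC1A3 are sodium-driven carriers of glutamate and aspartate, and they differed between the lines in opposite directions. SLC1A1 levels were -5.61 and -4.92 in Stylo parent and -6.03 and -6.11 in Stylo CSC, none well above background, against -1.27 and -1.39 in Star parent and -2.08 and -2.08 in Star CSC. The Star arrays lay above all Stylo arrays, at least 3.71-fold higher in Star parent than in Stylo parent (adjusted p = 1.82e-05) and at least 6.59-fold higher in Star CSC than in Stylo CSC (8.14e-05). Such a bound sets the bright group's mean against the dim arrays' own signal or their lowest flagged level, whichever is higher. An adjusted p beside a bound tests the fitted difference, which uses the undetected signals, and not the bound. Genes given a bound were not detected in the dim group, so that p supports nothing by itself. With normexp the SLC1A1 difference between the unsorted lines turned to -0.28. SLC1A3 went the other way, with levels of 0.34 and 0.03 in Stylo parent, 1.84 and 1.49 in Stylo CSC, -2.61 and -2.81 in Star parent and -4.26 and -3.47 in Star CSC. No 2 groups overlapped. It was 7.46-fold lower in Star parent than in Stylo parent (-2.90 ± 0.29 SE, adjusted p = 0.000184) and 46.2-fold lower in Star CSC than in Stylo CSC (-5.53 ± 0.29, 6.69e-05). It was higher in Stylo CSC than in Stylo parent by 1.48 ± 0.29 (adjusted p = 0.00401). In Star CSC it was lower than in Star parent by 1.15 on the log2 scale (-1.15 ± 0.29, adjusted p = 0.0317), turning to 0.51 with spike-in scaling. That call ended without Star CSC replicate 1 (-0.75, adjusted p = 0.0797), Star parent replicate 1 (0.127) or replicate 2 (0.0821), and Stylo CSC replicate 1 (0.0548) or replicate 2 (0.0546).

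SLC7A11 and SLC3A2 encode the light and heavy chains of the cystine-glutamate exchanger, which supplies cysteine for glutathione. SLC7A11 levels were -1.21 and -0.69 in Stylo parent, -0.75 and -0.91 in Stylo CSC, -3.75 and -3.93 in Star parent and -4.97 and -4.77 in Star CSC. All 4 Stylo arrays lay above all 4 Star arrays. It was 7.43-fold lower in Star parent than in Stylo parent (-2.89 ± 0.20, adjusted p = 3.66e-05) and 16.5-fold lower in Star CSC than in Stylo CSC (-4.04 ± 0.20, 5.46e-05). These falls held in direction and call under each of the 6 other scalings, between -2.87 and -1.85 for the first and between -3.99 and -2.13 for the second. Sorting made no called difference in Stylo (0.12 ± 0.20). In Star it stood at -1.03 ± 0.20 (adjusted p = 0.0141), just past the fold limit, and turned to 0.63 with spike-in scaling. It was not called with array medians (-0.79), quantile normalization (-0.69), cyclic loess (-0.87) or normexp (-0.65). Without Star CSC replicate 1 it was -0.93 and without Star parent replicate 1 -0.94, both short of the fold limit.

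SLC3A2 also pairs with the large neutral amino acid carriers SLC7A5 and SLC7A8, and has 2 tested probes here that did not move alike. The brighter one stood at 4.28 and 4.51 in Stylo parent, 3.80 and 4.06 in Stylo CSC, 2.30 and 2.51 in Star parent and 1.30 and 1.35 in Star CSC, a lower level on every Star array. The other stood at -1.36 and -0.80, 0.67 and 0.46, -0.96 and -0.77, and -1.40 and -1.28 in the same order, with Stylo CSC alone raised. Both were lower in Star CSC than in Stylo CSC, by -2.61 ± 0.15 and -1.91 ± 0.20 (adjusted p = 8.42e-05 and 0.000665). Between the unsorted lines the brighter probe was lower (-1.99 ± 0.15, adjusted p = 5.16e-05; not called with spike-in scaling, -0.94, or normexp, -0.39) and the other was not called (0.21 ± 0.20). In Stylo CSC against Stylo parent only the dimmer probe was called, as higher (1.64 ± 0.20, 0.000538; 0.78 and not called with normexp). The brighter probe gave -0.46 ± 0.15 there, turning to 1.64 with spike-in scaling and 1.02 with normexp, both called as higher. In Star CSC against Star parent the brighter probe was lower (-1.08 ± 0.15, 0.00520), turning to 0.58 with spike-in scaling and not called without Star parent replicate 2 (-0.97).

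Carriers of arginine, leucine and glutamine followed. SLC7A1, a carrier of arginine and lysine, stood at 4.14 and 4.17 in Stylo parent, 2.47 and 2.51 in Stylo CSC, 1.91 and 2.19 in Star parent and 1.90 and 2.25 in Star CSC. Stylo parent lay above the other 3 groups, and the groups of the Star line overlapped. It was lower in Star parent (-2.10 ± 0.16, adjusted p = 5.18e-05) and in Stylo CSC (-1.66 ± 0.16, 0.000165) than in Stylo parent, the second turning to 0.44 with spike-in scaling, and the first not called with spike-in scaling (-1.05) or normexp (-0.59). A second probe gave -2.61 and -1.65 and was also lower in Star CSC than in Stylo CSC (-1.09 ± 0.14), where the brighter gave -0.42 ± 0.16. SLC1A5, the main glutamine carrier of many tumour cells, stood at 2.93 and 2.72 in Stylo parent, 3.60 and 3.61 in Stylo CSC, 2.22 and 2.27 in Star parent and 1.70 and 1.56 in Star CSC. It was 3.93-fold lower in Star CSC than in Stylo CSC (-1.98 ± 0.11, adjusted p = 8.92e-05), and between the unsorted lines its -0.58 ± 0.11 did not reach the fold limit and turned to 0.46 with spike-in scaling and 0.73 with normexp. SLC7A5, a leucine carrier, was lower in both comparisons of the lines (-1.21 ± 0.14 and -1.02 ± 0.14), but neither call held with scaling to the array medians (-0.81 and -0.82), and the second ended without Stylo CSC replicate 1 (-0.94).

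SLC3A1, a partner chain for cystine uptake in kidney, was detected on the Star arrays only, at -3.25 and -3.11 in Star parent and -3.83 and -3.84 in Star CSC, against -3.67 and -3.57 in Stylo parent and -4.68 and -4.56 in Stylo CSC. Star CSC was at least 1.71-fold higher than Stylo CSC (0.78 ± 0.11), and Star parent at least 1.03-fold higher than Stylo parent (0.44 ± 0.11), neither past 2-fold, and both turned negative with normexp (-0.44 and -1.70). SLC7A8 was just above background in Star parent (-4.43 and -4.05), and in Star CSC (-5.29 and -5.07) it was at least 1.91-fold lower (-0.94 ± 0.16, not called; 0.72 with spike-in scaling). Its Stylo parent levels were higher than in Star parent (-3.62 and -3.53), though not above background there.

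SLC6A12, which takes up betaine and GABA and is known as a response gene to hypertonic stress in kidney, was the sole detected member among 4 SLC6 carriers. Its levels were -3.41 and -4.85 in Stylo parent, neither well above background, -1.55 and -1.71 in Stylo CSC, -3.50 and -3.39 in Star parent and -0.02 and -0.03 in Star CSC. In both lines the sorted arrays lay above the unsorted ones, and the highest level was in Star CSC. Star CSC exceeded Star parent 10.7-fold (3.42 ± 0.43, adjusted p = 0.00421), the sole member called higher in that comparison, where 3.21% of all probes were called higher. That rise was called under all 6 other scalings, from 1.96 to 5.08. Stylo CSC was at least 3.01-fold above Stylo parent (adjusted p = 0.00235), a difference that normexp turned to -0.83. Star CSC also stood above Stylo CSC (1.60 ± 0.43, adjusted p = 0.0213), but not with quantile normalization or without any 1 of the 4 arrays compared (adjusted p = 0.0717 to 0.0894). The summed level of the 3 named leukocyte markers, on the linear scale used above, was 1.02 to 1.06 in Star CSC, against 0.0984 to 0.128 in Star parent and 0.0409 to 0.159 on the Stylo arrays, with CD79A and CD86 above background in both Star groups, TYROBP on both arrays of Star CSC only, and none of them on both arrays of a Stylo group. Their part in the SLC6A12 rise was not tested. Fewer cells of a type and less RNA per cell cannot be told apart in such bulk samples.

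SLC5A3, the sodium-coupled inositol carrier and another gene of osmotic control, stood at -2.75 and -3.86 in Stylo parent, -1.52 and -1.32 in Stylo CSC, -0.52 and -0.44 in Star parent and -0.81 and -0.23 in Star CSC. Stylo parent lay lowest and the groups of the Star line overlapped. It was higher in Star parent (2.83 ± 0.38, adjusted p = 0.000725) and in Stylo CSC (1.89 ± 0.38, 0.00463) than in Stylo parent, with 1 of 2 Stylo parent arrays above background, and normexp turned both (-0.41 and -0.91). Sorting made no called difference in Star (-0.04 ± 0.38). The interaction of line and sorting was -1.93 ± 0.54 and was not called without Star CSC replicate 1 (-1.64), Star parent replicate 1 (-1.97) or 2 (-1.89), or Stylo CSC replicate 2 (-1.83), nor in that direction with normexp (0.58).

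**Figure D3:**
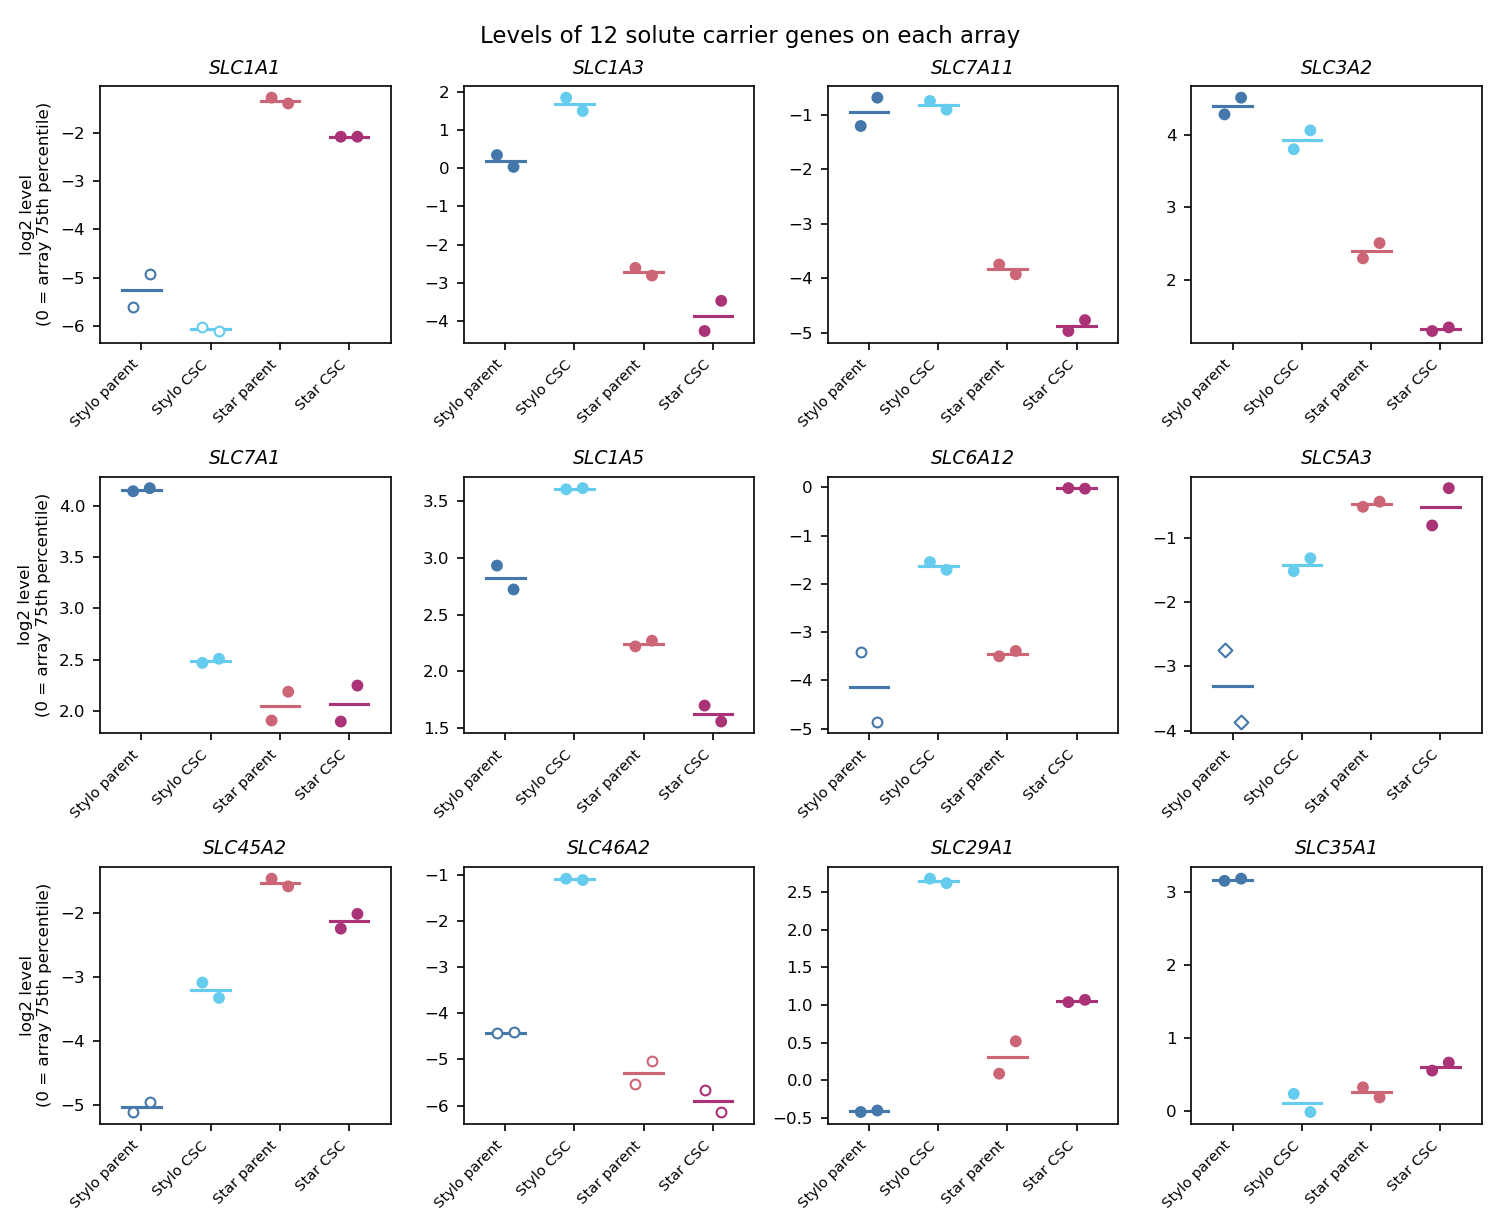
Levels of 12 genes on each array (log2, 0 is the 75th percentile of the array), with the mean of each group as a line; filled circles mark groups with both arrays well above background, open circles groups with none and open diamonds groups with 1. SLC1A1 is detected in the Star groups only, SLC46A2 in Stylo CSC only, and SLC6A12 is highest in Star CSC at -0.02 and -0.03.

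The fit called all 4 tested carriers of the sugar class (SLC2A4, SLC2A9, SLC45A2 and the inositol carrier SLC5A3) higher in Star parent than in Stylo parent, but SLC2A4 and SLC45A2 were below detection in Stylo parent, and with normexp SLC2A9 alone was called higher and SLC2A4 was called lower. In Stylo CSC against Stylo parent SLC2A9, SLC45A2 and SLC5A3 were called higher, with SLC2A9 alone so with normexp. Of all probes, 24.6% were called higher in the comparison of the unsorted lines and 21.9% in Stylo CSC against Stylo parent. In Star CSC against Star parent none of the 4 was called (all 4 called higher with spike-in scaling), beside 9.69% of all probes. SLC2A9, a urate carrier of the glucose carrier family, stood at 0.94 and 1.14 in Stylo parent, 2.83 and 2.78 in Stylo CSC, 2.50 and 2.54 in Star parent and 2.80 and 2.77 in Star CSC. Stylo parent lay below the other 3 groups, by 1.48 ± 0.10 against Star parent (adjusted p = 4.26e-05) and 1.76 ± 0.10 against Stylo CSC (3.00e-05), and these rises were called under each of the 6 other scalings. SLC45A2, a carrier best known from the melanosomes of pigment cells, stood at -5.11 and -4.96 in Stylo parent, below detection, -3.09 and -3.33 in Stylo CSC, -1.47 and -1.59 in Star parent and -2.25 and -2.02 in Star CSC. It was at least 3.22-fold higher in Star parent than in Stylo parent (adjusted p = 6.98e-06), which normexp turned to -0.67. Star CSC exceeded Stylo CSC by 1.07 ± 0.14, a call that ended without Star CSC replicate 2 or Stylo CSC replicate 2 (0.96 each). Its bound in Stylo CSC over Stylo parent was 1.01-fold, with a fitted 1.82 ± 0.14 that normexp turned to -1.61.

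SLC2A4, the insulin-responsive glucose carrier of muscle and fat, stood at -5.17 and -4.94 in Stylo parent, -6.55 and -6.59 in Stylo CSC, -4.09 and -3.68 in Star parent and -3.98 and -3.99 in Star CSC, above background only in the Star groups. Its bound for Star CSC over Stylo CSC was at least 1.76-fold higher (adjusted p = 0.000117; -0.10 with normexp). The fit called it higher in Star parent than in Stylo parent too (1.17 ± 0.16, 0.96 without Star parent replicate 2, -1.67 with normexp), but its Star parent level lay below the lowest flagged level of the Stylo parent arrays, so no fold is given. In Stylo CSC against Stylo parent, where neither group was above background, the fitted difference was -1.51 and turned to 0.05 with quantile normalization and 0.59 with spike-in scaling. A second probe was not above background on any array.

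Among ion carriers, the potassium-chloride cotransporter of volume control SLC12A4 split by probe. Its brighter probe stood at 0.65 and 0.34 in Stylo parent, 1.62 and 1.58 in Stylo CSC, 1.93 and 1.91 in Star parent and 1.67 and 1.95 in Star CSC, with Stylo parent below the other 3 groups. It was higher in Star parent (1.43 ± 0.15, adjusted p = 0.000227) and in Stylo CSC (1.1 ± 0.15, 0.000792; 0.95 without Stylo parent replicate 2) than in Stylo parent, while the other gave -0.33 ± 0.21 and -0.13 ± 0.21. With spike-in scaling the other probe turned to 0.71, not called, and 1.97, called as higher. That other probe was lower in Star CSC than in Star parent (-1.1 ± 0.21, adjusted p = 0.0143; 0.56 with spike-in scaling, and not called without Star CSC replicate 1 or 2 or Star parent replicate 1, with adjusted p = 0.0522, 0.0657 and 0.0421 and -0.82 for the last), where the brighter one gave -0.11 ± 0.15. SLC4A3, an anion exchanger of excitable cells, was higher in Stylo CSC than in Stylo parent (1.18 ± 0.20, adjusted p = 0.00203), with 1 Stylo parent array above background, turning to -0.73 with normexp and standing at 0.91 without Stylo parent replicate 2. The tested probe of SLC8A1, the sodium-calcium exchanger, stood at -4.10 and -4.19 in Star parent and -6.43 and -7.34 in Star CSC, not above background there. It was at least 2.52-fold lower in Star CSC (adjusted p = 0.00418), a call that did not hold with normexp (-0.92). Another probe, not tested, stood at -0.96 and -2.83 in Stylo parent, -4.71 and -4.74 in Star parent and -5.55 and -5.11 in Star CSC. A further probe was not above background on any array. SLC9A3R1 and SLC9A3R2, scaffold proteins that carry the prefix but transport nothing, were above background on all arrays and called in no comparison.

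**Figure D4:**
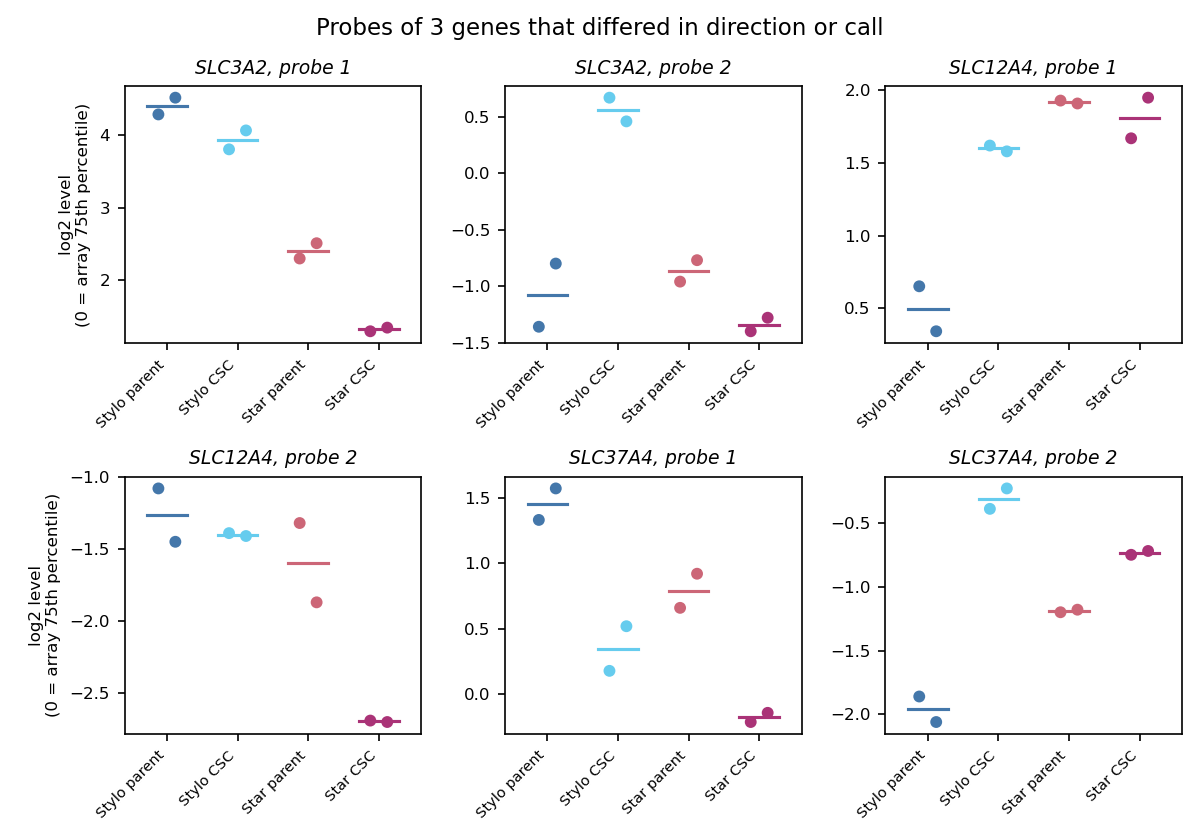
Levels on each array (log2, 0 is the 75th percentile of the array) of every tested probe of 3 genes, probe 1 being the brightest, with group means as lines and the same symbols as in the plot of levels. SLC37A4 probe 1 is highest in Stylo parent at 1.33 and 1.57, where its probe 2 is lowest at -1.86 and -2.06.

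Among metal carriers, SLC11A1, the iron and manganese exporter of phagosomes known from macrophages, was lower in Star by both of its probes. The brighter stood at 1.07 and 1.07 in Stylo parent, 1.35 and 1.18 in Stylo CSC, -1.04 and -1.05 in Star parent and -0.24 and -0.25 in Star CSC, with no overlap between lines. The falls were -2.12 ± 0.10 between the unsorted lines (adjusted p = 9.98e-06) and -1.51 ± 0.10 between the sorted cells (0.000130), neither called with spike-in scaling (-1.07 and -0.90), and the second probe gave -2.05 and -1.90. No named leukocyte marker was above background on both arrays of either Stylo group, and the part of such cells in the SLC11A1 differences was not tested. The zinc importer SLC39A6 and the zinc carrier of the secretory pathway SLC39A7, with 3 probes each, were not called by their brightest probe in any of the 4 comparisons. Other scalings did call both. That of SLC39A6 gave 0.59 for Star parent over Stylo parent. It was called there with quantile normalization (1.08), cyclic loess (1.11), spike-in scaling (1.64) and normexp (1.74). That of SLC39A7 stood at 1.46 and 1.29 in Stylo parent, 2.31 and 2.26 in Stylo CSC, 1.73 and 1.99 in Star parent and 1.43 and 1.49 in Star CSC, highest in Stylo CSC. The other 2 probes of SLC39A6 were higher in Star parent than in Stylo parent (1.5 ± 0.10 and 1.48 ± 0.26), neither called with normexp (0.69 and 0.26). For SLC39A7, 1 other probe was lower in Star CSC than in Stylo CSC (-1.68 ± 0.20), not called with spike-in scaling (-1.07).

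Of 3 tested carriers of nucleosides and vitamins, 2 were called higher in Stylo CSC than in Stylo parent, SLC29A1 and SLC46A2, where 21.9% of all probes were called higher. SLC29A1, an equilibrative carrier of nucleosides and nucleoside drugs, stood at -0.42 and -0.40 in Stylo parent, 2.68 and 2.62 in Stylo CSC, 0.09 and 0.52 in Star parent and 1.04 and 1.07 in Star CSC. All 4 groups were separate, in the order Stylo parent, Star parent, Star CSC and Stylo CSC. It was 8.35-fold higher in Stylo CSC than in Stylo parent (3.06 ± 0.15, adjusted p = 1.87e-05), called under all 6 other scalings. Star CSC lay below Stylo CSC (-1.60 ± 0.15, 0.000475; -0.99 and not called with spike-in scaling). A dimmer probe, on 0 of 2 Stylo parent arrays above background, gave 1.22 ± 0.80 for Stylo CSC over Stylo parent, not called. With normexp it turned to -1.60 and was called lower, and with spike-in scaling it was called higher (3.31). SLC46A2, a relative of the folate carrier first described in thymus stroma, stood at -1.08 and -1.11 in Stylo CSC and between -6.14 and -4.41 on the other 6 arrays, where it was not above background. Stylo CSC was at least 4.37-fold above Stylo parent (adjusted p = 4.06e-05; -0.59 with normexp), and Star CSC was at least 20.9-fold lower than Stylo CSC (4.41e-05). These p-values belong to the fitted differences. SLC46A2 passed the filter only through Stylo CSC and so had to differ. SLC23A2, a vitamin C carrier, stood between -0.91 and -0.27 on all arrays and was called in no comparison.

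Among carriers of organelles, the largest falls shared a pattern in which Stylo parent stood above all other groups. SLC35A1, which brings CMP-sialic acid into the Golgi, stood at 3.16 and 3.19 in Stylo parent, 0.23 and -0.02 in Stylo CSC, 0.32 and 0.18 in Star parent and 0.55 and 0.66 in Star CSC. It was 7.59-fold lower in Star parent (-2.92 ± 0.12, adjusted p = 7.76e-06) and 8.39-fold lower in Stylo CSC (-3.07 ± 0.12, 1.27e-05) than in Stylo parent, the second not called with spike-in scaling (-0.97). SLC25A14, a mitochondrial carrier of the uncoupling protein family, stood at 3.11 and 3.08, 0.55 and 0.58, 0.65 and 0.86, and 1.16 and 1.16 in the same order, with falls of -2.34 ± 0.10 and -2.53 ± 0.10 (adjusted p = 8.97e-06 and 1.31e-05; the second -0.44 and not called with spike-in scaling). SLC35A3, a carrier of UDP-N-acetylglucosamine, stood at 2.48 and 2.49, 0.80 and 0.86, 0.99 and 0.79, and 0.61 and -0.45 and fell likewise (-1.59 ± 0.32 and -1.66 ± 0.32). The first was not called with spike-in scaling (-0.55) or normexp (-0.39), the second turning to 0.44 with spike-in scaling.

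Of the 6 nucleotide sugar carriers tested, 2 were higher and 2 lower in each of these comparisons. The shares over all probes were 24.6% up and 31.9% down between the unsorted lines. They were 21.9% up and 32.1% down for Stylo CSC over Stylo parent. None of the 6 was called in Star CSC against Star parent or against Stylo CSC, beside 9.69% and 29.4% of all probes. The sulphate donor carrier SLC35B2 was the higher one above background on all arrays, at -1.02 and -0.72 in Stylo parent, 0.29 and 0.33 in Stylo CSC, 0.63 and 0.33 in Star parent and 0.16 and 0.27 in Star CSC. It rose by 1.35 ± 0.15 in Star parent and 1.18 ± 0.15 in Stylo CSC (adjusted p = 0.000345 and 0.000690), neither called with normexp (0.78 and 0.57). The GDP-fucose carrier SLC35C1 stood at -5.51 and -5.32, -3.99 and -3.55, -4.02 and -4.25, and -4.24 and -4.27 in the same order. It was called higher in both (1.28 ± 0.18 and 1.65 ± 0.18; -1.68 and -1.66 with normexp), but Stylo parent was not above background and no bound above 1 could be given. The carriers of UDP-galactose (SLC35A2) and UDP-xylose (SLC35B4) were not called in any of the 4 comparisons, between -0.36 and 0.75. SLC25A27, another mitochondrial carrier of the uncoupling family, was above background only in Star (-4.28 and -4.70 in Star parent, -4.02 and -4.31 in Star CSC, against -3.60 and -4.28 in Stylo parent and -6.75 and -6.96 in Stylo CSC) and at least 1.55-fold higher in Star CSC than in Stylo CSC (adjusted p = 0.000536; 0.00 with normexp). The glucose-6-phosphate carrier SLC37A4 gave opposite calls by its 2 probes in Stylo CSC against Stylo parent, -1.10 ± 0.17 for the brighter (1.00 with spike-in scaling, -0.93 without Stylo CSC replicate 1 and -0.98 without Stylo parent replicate 2) and 1.65 ± 0.11 for the other.

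The difference between sorted and unsorted cells was set against itself in the 2 lines as an interaction, which uses all 8 arrays. It was called for 18 of the 34 genes (52.9%), 5 higher and 13 lower in Star, against 52.1% of all probes, 28.2% higher and 23.9% lower, and normexp turned this split to 10 and 8. SLC1A3 was the sole gene with a call in each line and opposite signs, 1.48 ± 0.29 in Stylo and -1.15 ± 0.29 in Star, and their difference was -2.63 ± 0.41 (adjusted p = 0.00202). For SLC35A1 and SLC25A14, sorting lowered the level in Stylo and made no called difference in Star (0.36 ± 0.12 and 0.41 ± 0.10), differences between lines of 3.43 ± 0.18 and 2.94 ± 0.15. For SLC29A1 and SLC2A9 the rise was in Stylo (3.06 and 1.76) with 0.75 and 0.26 in Star, not called there. SLC6A12 was raised by sorting in both lines and the interaction was not called (0.92 ± 0.61, adjusted p = 0.229), although it was called without Stylo parent replicate 2 (1.64), with normexp (2.79) and with a common detection floor (1.60). The Stylo side of each interaction rests on the dim Stylo parent arrays. In Star CSC against Star parent, and between the sorted cells, a fit without both Stylo parent arrays again called 5 and 14 members.

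**Figure D5:**
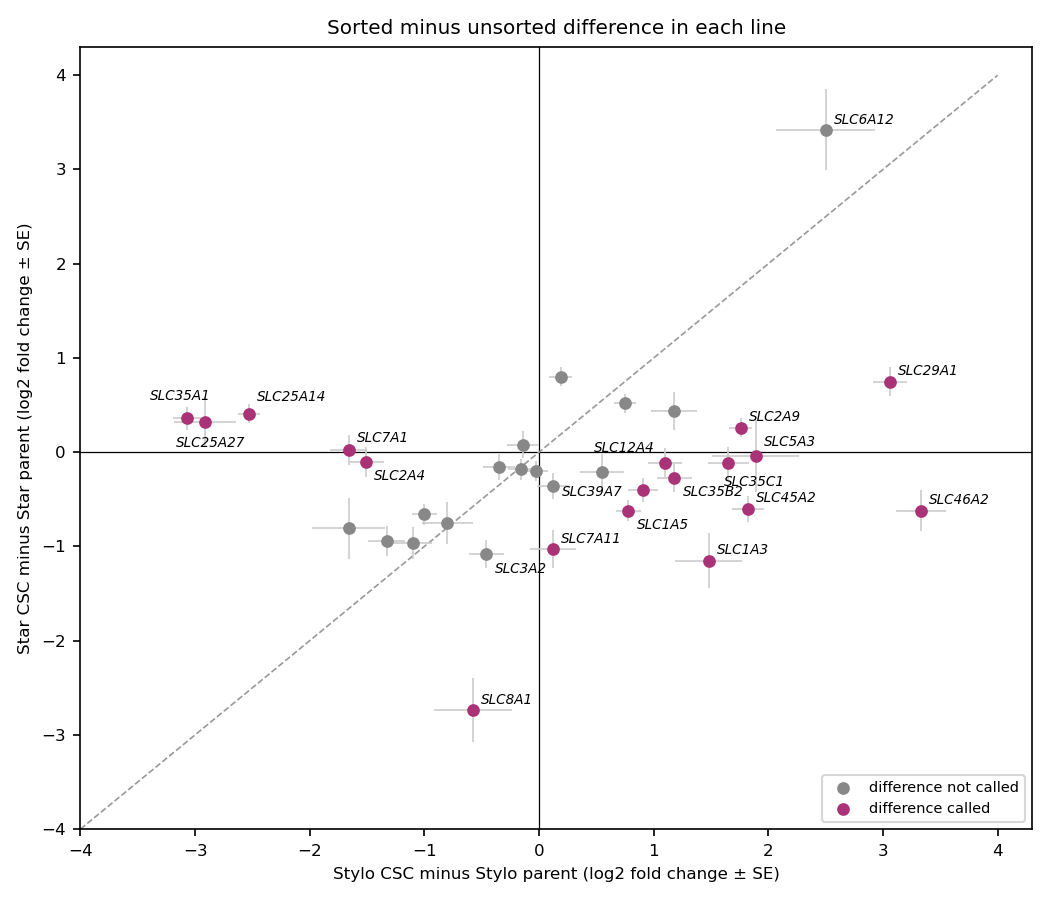
Each point is 1 of the 34 genes, with the log2 fold change of sorted over unsorted cells in Stylo on the horizontal axis and in Star on the vertical axis (bars are SE, the dashed line marks equal differences), and purple marks genes whose 2 differences were called apart. SLC6A12 lies high on both axes at 2.50 and 3.42, SLC1A3 lies at 1.48 and -1.15, and most purple points lie along the horizontal axis.

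Solute carriers share their work with pumps that build the gradients and channels that release them. Counts for both lists read against the same shares of all probes as above, 24.6% higher and 31.9% lower, 21.9% and 32.1%, 3.21% and 6.48%, and 12.6% and 16.8% in the 4 comparisons. Of 7 named ATP-driven ion pumps, 6 were tested, with 2 higher and 1 lower in Star parent than in Stylo parent, 3 higher and 1 lower in Stylo CSC than in Stylo parent, 1 lower in Star CSC than in Star parent and none called between the sorted cells. The calcium pump ATP2A2 rose most in the first 2 (3.36 ± 0.18 and 3.28 ± 0.18), the proton pump subunit ATP6V0E1 was lower (-1.73 ± 0.53 and -1.51 ± 0.53), and the copper pump ATP7B was lower in Star CSC than in Star parent (-1.03 ± 0.17, adjusted p = 0.00941). Of 30 named ion and water channel genes, 15 were tested, with 5 higher and 2 lower, 1 higher and 4 lower, 1 higher and 1 lower, and 4 higher and 1 lower in the 4 comparisons in the same order. The calcium channel TRPV4, which opens on cell swelling, was higher in Star parent (1.60 ± 0.10) and in Stylo CSC (1.63 ± 0.10) than in Stylo parent, which was below detection. The chloride channel protein CLIC2 was higher in Star CSC than in Star parent (2.62 ± 0.39, adjusted p = 0.00705) and than in Stylo CSC (3.29 ± 0.39), and the potassium channel KCNA5 was lower in Star CSC than in Star parent (-3.36 ± 0.33).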

How the data were processed

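Spots were quantified by the authors using Agilent Feature Extraction 11.5.1.1, per the submitters' processing notes. Their deposited scanner files give a processed signal per spot as an intensity, with flags. The deposited series matrix holds log2 values: per array, these equal the log2 processed signal less the 75th percentile, centred per probe (column medians -0.27 to 1.01), to an SD of 3.93e-07 or less over 43494 probes. Direction and scale thus match the scanner files.

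Groups came from sample titles. Control and outlier spots were left out, spots of a probe averaged, and probes missing on any array (109) dropped. Probe accessions were matched to symbols in RefSeq's gene list for assembly UU_Cfam_GSD_1.0, naming 2353 probes (5.40%). No sequence is printed, and 1 further solute carrier gene is not reported here. limma 3.58.1 in R 4.3.3 fitted 4 group means on 8 arrays (checked on simulated data). All p-values are two-sided. Members, lists and the naming rule were chosen with earlier results of these data known. Values on every array were given for the 4 largest called rises and falls per comparison, the 3 largest bounds, and genes with opposite sort differences and a called interaction; SLC11A1 was added after its values were seen. Replicates correlated at 0.982 or more. Replicate numbers paired arrays by label only (deviations correlated at -0.07 to 0.07), so no block was used. Other scalings, background correction, filters, thresholds, variance models, the matrix and leaving out each array were alternatives.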

Additional observations from a re-analysis of the deposited data

Results flagged for a closer look

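The difference between sorted and unsorted cells was itself different between the lines for 18 members, by limma's interaction test at an adjusted p under 0.05 and 2-fold. The values are the sort difference in Star less that in Stylo, on the log2 scale. It was negative for SLC46A2 (-3.94), SLC1A3 (-2.63), SLC45A2 (-2.43), SLC29A1 (-2.31), SLC8A1 (-2.16), SLC5A3 (-1.93), SLC35C1 (-1.77), SLC2A9 (-1.5), SLC35B2 (-1.45), SLC1A5 (-1.39), SLC39A7 (-1.31), SLC12A4 (-1.22) and SLC7A11 (-1.15). It was positive for SLC2A4 (1.41), SLC7A1 (1.68), SLC25A14 (2.94), SLC25A27 (3.24) and SLC35A1 (3.43). In Stylo parent, SLC46A2, SLC45A2, SLC35C1, SLC2A4 and SLC25A27 were not well above background on either array, so their size is not measured on that side. The tested probe of SLC8A1 was above background in Star parent only, so its value sets undetected signals against each other in Stylo. Without Stylo parent replicate 1 the SLC7A11 value was -0.89 and not called. With normexp, SLC45A2 (1.04), SLC35C1 (1.25), SLC5A3 (0.58) and SLC8A1 (0.98) turned positive. SLC46A2 fell to 0.00 with normexp and was not called, nor were SLC35B2 (-0.75), SLC7A11 (-0.28) and SLC7A1 (0.33). With spike-in scaling SLC7A1 (1.24), SLC7A11 (-1.58), SLC12A4 (-1.65), SLC39A7 (-1.75) and SLC2A4 (0.98) were not called. SLC2A4 was also not called with quantile normalization (0.09), nor SLC45A2 with the common detection floor (-0.63). The dimmer SLC29A1 probe gave 0.36, the other SLC12A4 probe -0.97 and the other SLC39A7 probes -0.73 and -1.88, none of them called. By their dimmer probe SLC3A2 (-2.12) and SLC37A4 (-1.19, 0.16 with normexp) were called, but not by the brighter (-0.62 and 0.14). No group holds 4 or more arrays, so no array was tested as an outlier.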

How the results depend on the processing

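Counts of calls are given as all probes and solute carrier genes, against 15120 and 17 (Star parent over Stylo parent), 14445 and 19 (Stylo CSC over Stylo parent), 2590 and 5 (Star CSC over Star parent), 7866 and 14 (Star CSC over Stylo CSC) and 13938 and 18 (interaction). Without the filter on dim probes the first gave 26680 and 27, the second 28599 and 32, and the interaction 21938 probes. Without the fold limit, solute carrier genes numbered 28 in the first comparison, and Star CSC over Star parent gave 7891 and 15, and Star CSC over Stylo CSC 15223 and 23. Requiring detection on all arrays compared left 10, 9 and 11 genes in Stylo CSC over Stylo parent, Star CSC over Stylo CSC and the interaction. In Star CSC over Star parent, array medians and quantile normalization each gave 3 genes, spike-in scaling 21705 and 24, normexp 1139 and 1, and a common detection floor, chosen after seeing the data, 1574 and 2. In Star CSC over Stylo CSC, normexp gave 4001 and 9 and the floor 5057 and 9. Spike-in scaling gave 8222 probes in the interaction. Leaving out 1 array moved the third comparison's genes from 2 (without Star parent replicate 2) to 7 (without Star CSC replicate 2).

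Directions turned with normexp for SLC1A1 (-0.28) and SLC3A1 (-1.70) in the first comparison, SLC45A2 in the first (-0.67), the second (-1.61) and the interaction (1.04), SLC46A2 (-0.59) and SLC6A12 (-0.83) in the second, SLC2A4 (-0.10) and SLC3A1 (-0.44) between the sorted cells, and SLC35C1 (1.25) and SLC5A3 (0.58) in the interaction. With spike-in scaling they turned for SLC35A3 and SLC7A1 (0.44 each) in the second comparison and for SLC1A3 (0.51), SLC3A2 (0.58), SLC7A11 (0.63) and SLC7A8 (0.72) in the third. The cause was not tested. The replicate number as a block gave 17, 19, 4, 14 and 18 genes, with SLC1A3 no longer called in the third comparison (-1.15). Of 1061 other settings of 51 named results, 980 kept direction and side of the threshold. Low signal on the Stylo parent arrays limits what can be measured for dim genes.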
